A study of Sus scrofa with 12 samples.

Results

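The 4 genes described here encode actin isoforms: ACTA2 and ACTG2, the smooth-muscle actins, and ACTB and ACTG1, the cytoplasmic actins. They are 4 of the 29658 gene entries that could be used from the count table, taken by symbol or by the pig Ensembl identifier of that symbol, with the most-read entry for each symbol. All 4 were among the 12392 entries that passed the filter on low counts. They were picked with earlier results of the same comparison known, so their levels and fold changes are given as a description and carry no test. No pig mRNA, promoter or protein sequence was among the references used here, and none is shown.

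Actin is the protein of the microfilaments. Monomers join into filaments that carry cell shape, movement and, together with myosin, contraction. Beta-actin (ACTB) and gamma-actin (ACTG1) are made by nearly every cell. Alpha smooth-muscle actin (ACTA2) is typical of vascular smooth muscle, pericytes and myofibroblasts, and gamma smooth-muscle actin (ACTG2) of visceral smooth muscle, although cultured stromal cells also make both. Actin genes are classic targets of serum response factor (SRF), whose MRTF coactivators are held by actin monomers and released when filaments form.

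Mesenchymal stromal/stem cells (MSCs) were grown from the abdominal fat of 3 female domestic pigs that were 3 months old, and were used at passage 3. They were untreated and were cultured with platelet lysate. Extracellular vesicles (EVs), the membrane particles that cells shed, were spun out of the medium of the same cultures. For mRNA there were thus 3 MSC and 3 EV libraries, 1 of each per pig, and replicates 1, 2 and 3 are the 3 pigs. Each culture came from a single animal, and a bulk library of this kind gives the share of each transcript only, so less of an mRNA in EVs and more of all other RNA cannot be told apart.

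The libraries held 10429085 to 12276855 reads on genes, which was 25.4% to 28.2% of the library totals behind the authors' RPKM (reads scaled to gene model length and to the library total). Of the MSC surface markers CD44, NT5E, THY1, ENG, ITGB1 and PDGFRA, 5 of 6 had reads. THY1, a defining marker, was listed at 0 in an entry whose span another entry covered. ITGB1 had only 10 reads over all mRNA libraries together, and ENG had 408. Another entry covered 99.99% of the span of ITGB1 and 99.7% of that of ENG, so their levels are uncertain. The 6 markers summed to 851 to 1248 RPM (reads-per-million of the reads on genes) in MSCs and to 1165 to 1324 in EVs. Adipocyte markers were at or near 0, from 0 to 0.255 RPM in MSCs and from 0.479 to 0.603 in EVs, although PLIN1 and PPARG, which were listed at 0, were also covered by another entry.

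ACTG1 was the most abundant actin mRNA in every library. The entry (ENSSSCG00000028355) covers chromosome 12 from 1163225 to 1166027 on the plus strand of susScr3, the build that the submitters' processing notes name, with a gene model of 1952 bases and no other entry over it. It stood at 1615, 1684 and 1301 RPKM in the MSCs of pigs 1, 2 and 3, and at 437, 439 and 291 RPKM in their EVs. Every EV library was below every MSC library, and the lowest MSC value was 2.96 times the highest EV value. The log2 fold change was -2.03 with a standard error (SE) of 0.37 (edgeR), which is 4.07-fold lower in EVs. Among all entries ranked by RPKM, ACTG1 held places 6 to 13 in MSCs and 25 to 44 in EVs, so it remained one of the most abundant mRNAs of the vesicles.

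ACTB (ENSSSCG00000007585) lies on chromosome 3 from 4729276 to 4732654 on the minus strand, with a gene model of 1859 bases and no overlapping entry. The MSC replicates had 776, 713 and 795 RPKM, and the EV replicates 324, 252 and 166 RPKM. The groups did not overlap, with a lowest MSC value 2.20 times the highest EV value. Its log2 fold change was -1.67 with an SE of 0.34 (edgeR), or 3.18-fold lower in EVs, the smallest difference of the 4 genes. ACTB ranked 19 to 31 by RPKM in MSCs and 40 to 81 in EVs. ACTB and ACTG1 together took 1.63% ± 0.0943 of the reads on genes in MSCs and 0.456% ± 0.131 in EVs (SD, n = 3 each).

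ACTG2 (ENSSSCG00000008294, chromosome 3 from 72251856 to 72310387 on the minus strand, gene model of 1252 bases, no overlapping entry) was far less abundant than the cytoplasmic actins. The MSCs of pigs 1, 2 and 3 gave 449, 630 and 497 reads, and their EVs gave 58, 40 and 43. In RPKM these were 8.11, 11.6 and 9.13 in MSCs and 1.13, 0.723 and 0.824 in EVs. All EV values lay in a narrow range under the MSC values, and the lowest MSC value was 7.18 times the highest EV value. The log2 fold change was -3.47 with an SE of 0.34 (edgeR), which is 11.1-fold lower in EVs.

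ACTA2 had the fewest reads and, in the edgeR fit, the largest difference of the 4 genes. The entry used (ENSSSCG00000010447, chromosome 14 from 109852735 to 109871621 on the minus strand, gene model of 1647 bases) collected 359, 286 and 431 reads from the MSCs of pigs 1, 2 and 3, and 13, 5 and 39 from their EVs. The exact Poisson intervals (95%, for counting error only) of the EV reads were 6.92 to 22.2, 1.62 to 11.7 and 27.7 to 53.3. In RPKM, the MSC replicates had 4.93, 3.99 and 6.02 and the EV replicates 0.192, 0.0687 and 0.568. EV replicate 3 was the highest of the EV libraries, with an interval above those of the other two, and it still lay under every MSC library. The log2 fold change of -4.10 (SE 0.74, edgeR) is 17.1-fold lower in EVs, and without EV replicate 3 it was -5.35. On the log2(RPKM + 1) scale, which understates the change of low genes, the order of the smooth-muscle actins turned, with ACTA2 at -2.23 and ACTG2 at -2.48 beside -1.99 for ACTG1 and -1.67 for ACTB (limma).

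The level of ACTA2 per length depended on which bases were counted. A second entry, named by the symbol, covers chromosome 14 from 109853005 to 109871415 with a gene model of 1171 bases. It lies wholly within the span of the entry used and had 0 reads in all 6 libraries. The entry used is 476 bases longer in gene model length, 28.9% of its own length. Whether reads on the shared bases were left out of the count was not tested. Had all reads come from those 476 bases, a length chosen after the data were seen, ACTA2 would stand at 13.8 to 20.8 RPKM in MSCs and 0.238 to 1.97 RPKM in EVs.

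**Figure D1:**
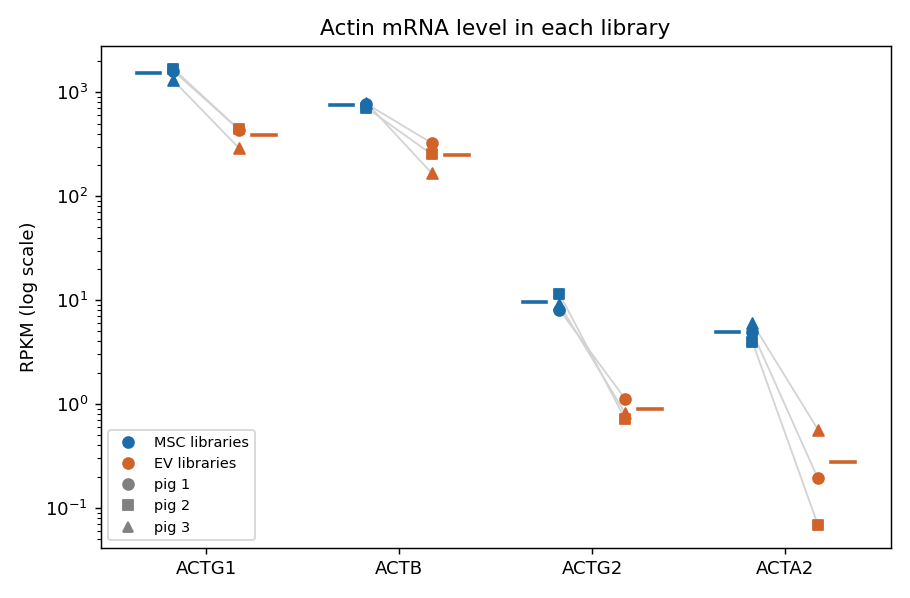
RPKM of each actin gene in every library, on a log scale, with MSC libraries in blue, EV libraries in orange, marker shapes for the pigs, grey lines joining the libraries of a pig and short bars at the group means. All 4 genes were lower in EVs of every pig, and ACTA2 spread most among EVs, from 0.0687 to 0.568 RPKM.

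The order of the levels was ACTG1, ACTB, ACTG2 and ACTA2 in every library. In MSCs, ACTG1 was at 1533 ± 204 RPKM and ACTB at 761 ± 42.9 (SD, n = 3 each), and their ranges did not overlap. ACTG2 followed at 9.61 ± 1.78 RPKM and ACTA2 at 4.98 ± 1.02 (SD, n = 3 each), also without overlap. In EVs, ACTG1 was at 389 ± 84.9 RPKM and ACTB at 247 ± 79.2 (SD, n = 3 each). These ranges overlapped, although ACTG1 was the higher in each EV library. ACTG2 was at 0.892 ± 0.211 RPKM and ACTA2 at 0.276 ± 0.260 in EVs (SD, n = 3 each), without overlap. The place of ACTA2 below ACTG2 depended on the gene model length: with the 476 bases, ACTA2 was above ACTG2 in all 3 MSC libraries and in 1 of the EV libraries, replicate 3.

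Both smooth-muscle actins differed more between EVs and MSCs than either cytoplasmic actin did in 3 of 3 pigs. In pig 1, on the log2 scale of RPKM, the difference of EVs from MSCs was -4.68 for ACTA2, -2.84 for ACTG2, -1.88 for ACTG1 and -1.26 for ACTB. In pig 2 the values were -5.86 for ACTA2, -4.0 for ACTG2, -1.94 for ACTG1 and -1.5 for ACTB. In pig 3 they were closer together, at -3.41 for ACTA2, -3.47 for ACTG2, -2.16 for ACTG1 and -2.26 for ACTB. Relative to ACTB in the same pig, the log2 difference of ACTG2 was -1.76 ± 0.663 and that of ACTA2 was -2.97 ± 1.65 (SD, n = 3 pigs). The difference of ACTA2 from ACTB ranged from -4.36 in pig 2 to -1.14 in pig 3, so its size varied widely between animals.

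**Figure D2:**
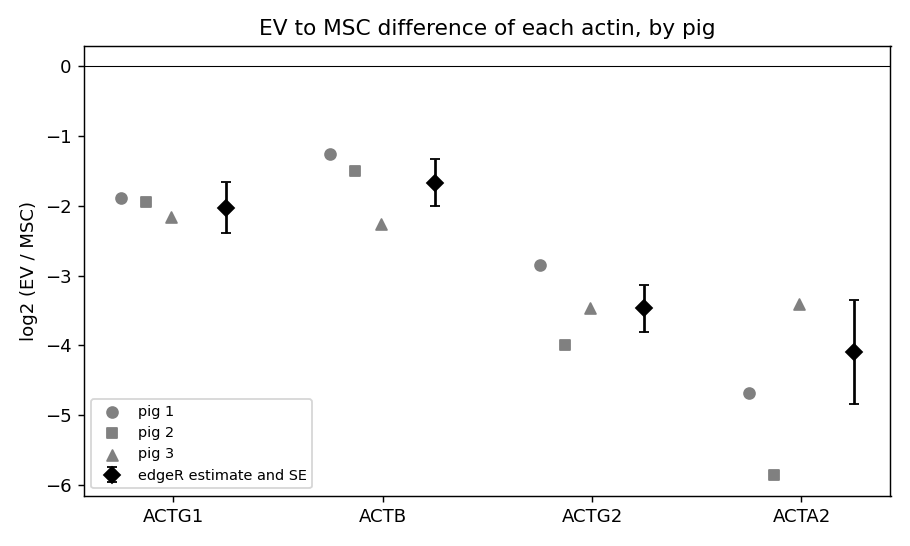
The log2 ratio of EV to MSC for each actin gene, with grey markers for the ratio of RPKM in each pig and black diamonds for the edgeR estimate with its standard error. The smooth-muscle actins ACTG2 and ACTA2 lie lower than the cytoplasmic actins in every pig, and the pigs spread most for ACTA2, from -5.86 to -3.41.

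The make-up of the actin mRNA pool differed accordingly. Counted per kilobase, ACTA2 and ACTG2 together made up 0.542%, 0.645% and 0.718% of the 4 actins in MSC replicates 1, 2 and 3. In the EV replicates they made up 0.173%, 0.115% and 0.304%. The group means were 0.635% ± 0.0882 in MSCs and 0.197% ± 0.0969 in EVs (SD, n = 3 each), without overlap. With the shorter ACTA2 length the means were 1.17% in MSCs and 0.327% in EVs.

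Within each class the ratio of the isoforms overlapped between MSCs and EVs. The ratio of ACTG1 to ACTB per kilobase was 2.08, 2.36 and 1.64 in the MSCs of pigs 1, 2 and 3 and 1.35, 1.74 and 1.76 in their EVs. That of ACTA2 to ACTG2 was 0.608, 0.345 and 0.659 in MSCs and 0.170, 0.0950 and 0.689 in EVs. EV replicate 3 had an ACTA2 to ACTG2 ratio close to that of its own MSCs, while EV replicates 1 and 2 were below every MSC library. Since 5 to 39 reads of ACTA2 lie behind the EV ratios, they carry a large counting error.

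**Figure D3:**
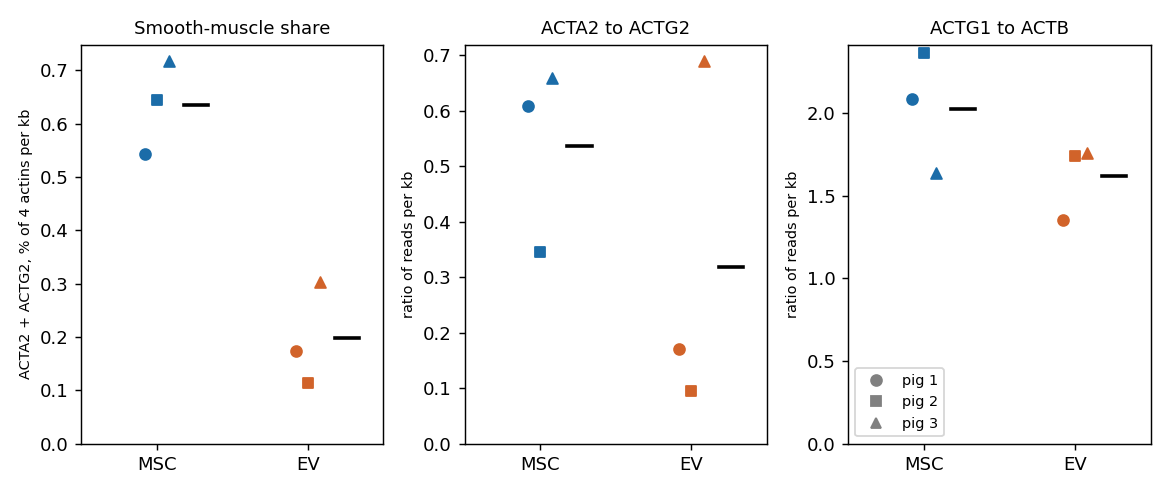
Share of the smooth-muscle actins among the 4 actins (left) and the ratios of ACTA2 to ACTG2 (middle) and ACTG1 to ACTB (right), each from reads per kilobase, with 1 marker per library shaped by pig and a black bar at the group mean. The share is lower in all 3 EV libraries, at 0.115% to 0.304% against 0.542% to 0.718%, while both ratios overlap between the groups.

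The quasi-likelihood test of edgeR was run over all entries. A fold change over 2 with an unadjusted p-value under 0.05, the thresholds of the study, was reached by 442 entries that were lower in EVs, 3.57% of those tested, and by all 4 actins. No entry passed after Benjamini-Hochberg adjustment (0 higher and 0 lower in edgeR, with 1978 entries at an unadjusted p-value under 0.05). In the same fit with pigs as blocks, 0.605% of entries were lower after adjustment, and ACTA2 and ACTG2 were among them while ACTB and ACTG1 were not. DESeq2 called 1.5% of entries lower after adjustment, with all 4 actins among them. The shares higher in EVs were 0.492% with the block and 2.04% with DESeq2. By the unadjusted thresholds, the block gave 5.17% lower and 8.01% higher, and DESeq2 4.33% lower and 6.29% higher. Every EV library was below every MSC library for 13.6% of the entries and for the 4 actins. Since the actins were chosen on this comparison, nothing is read from these counts. By fold change, ACTA2 ranked 7th and ACTG2 14th from the lowest of the 12392 entries, ACTG1 110th and ACTB 219th. The median log2 fold change over all entries was -0.016.

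Of 6 other actin and actin-related genes listed, 2 could be tested. ACTA1 and ACTC1, the skeletal and cardiac muscle actins, had 0 reads and 1 read in all 6 libraries together, but another entry covers 99.7% of the span of ACTA1 and 65.6% of that of ACTC1, so their levels could not be read. ACTBL2, a beta-actin-like gene, was read 168, 250 and 168 times in the MSCs of pigs 1, 2 and 3 and 15, 6 and 28 times in their EVs. It was lower in every EV library than in every MSC library, with a log2 fold change of -3.50 (SE 0.64, edgeR adjusted p 0.206, or 0.0326 when pigs were blocked). The coding sequences of actin genes are much alike, and reads that match several of them can be assigned to either, so the values of the less abundant actins are uncertain to that extent. ACTL6A, an actin-related subunit of chromatin remodelling complexes, had a log2 fold change of -0.095 (SE 0.27, edgeR adjusted p 0.868).

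Of 10 listed genes that control actin transcription, 7 could be tested. By the unadjusted thresholds 1 was lower and 0 were higher, beside 3.57% and 5.55% of all entries. The log2 fold changes of the 7 were negative for 4 and positive for 3, beside 50.9% negative over all entries. They ran from -2.90 to 1.03, with a median of -0.024. The 1 lower gene was SRF itself, at 163, 145 and 131 TMM-normalized CPM (counts-per-million) in the MSCs of pigs 1, 2 and 3 and 72.8, 74.5 and 53.3 in their EVs. The log2 fold change of SRF was -1.13 (SE 0.23), with adjusted p-values of 0.210 in edgeR, 0.0761 when pigs were blocked and 0.00342 in DESeq2. Without EV replicate 3 the log2 fold change of SRF was -0.99, just within the 2-fold limit. RHOC, a small GTPase that acts on the cytoskeleton and the gene of the list with the most reads, was at -0.65 (SE 0.28, edgeR adjusted p 0.313) with every EV library below every MSC library, in an entry that another covers. The coactivator MRTFA was at 0.073 (SE 0.23), and the kinase ROCK1 at 1.03 (SE 0.56, edgeR adjusted p 0.375). ROCK1 passed the unadjusted thresholds as higher in EVs with pigs as blocks, at 1.33, and without MSC replicate 1, at 1.49. MYOCD, the smooth-muscle partner of SRF, named after its values were seen, gave 201, 12 and 29 reads from the MSCs and 14, 0 and 14 from the EVs, so most of its reads came from MSC replicate 1. Its log2 fold change was -2.90 (SE 1.28) and -1.08 without that library. It passed the unadjusted thresholds in 6 alternatives, among them pigs as blocks and DESeq2, and not in the fit reported here.

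Of 15 genes for smooth-muscle contractile partners, only 5 could be tested. Listed at 0 were MYL9, TAGLN, TPM1, SMTN and DES, each in an entry whose span another entry covers by at least 90%, and CNN1 had 2 reads, so the contractile programme around ACTA2 and ACTG2 could not be read as a whole. SYNPO2, which encodes an actin-bundling protein of smooth muscle, was read 161, 71 and 24 times in the MSCs of pigs 1, 2 and 3 and 18, 3 and 8 times in their EVs. It was the 1 gene of the 5 that was lower by the unadjusted thresholds, beside 3.57% of all entries. The log2 fold change of SYNPO2 was -3.05 (SE 0.84), with adjusted p-values of 0.227 in edgeR, 0.0602 when pigs were blocked and 0.0103 in DESeq2. MYLK, the kinase of the myosin light chain, was at 113 ± 28.8 CPM in MSCs and 51.8 ± 31.1 in EVs (SD, n = 3 each), which the fit gave as a log2 change of -1.13 (SE 0.51, edgeR adjusted p 0.321). MYLK passed the unadjusted thresholds in 5 alternatives, namely with pigs as blocks, without EV replicate 3, with DESeq2, with library totals alone and with no filter. Caldesmon (CALD1), an abundant regulator of actomyosin, overlapped between the groups, at 2640.7, 1116 and 2559.8 CPM in MSCs and 1127, 1182 and 1945 CPM in EVs. LPP, an adhesion protein of smooth muscle, was the 1 tested gene of the list with a positive log2 fold change, at 0.96 (SE 0.79, edgeR adjusted p 0.532), and it passed the unadjusted thresholds as higher in EVs without MSC replicate 1, at 2.03.

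Genes of myosin II, tropomyosin and actin crosslinkers held the most called genes. Of 20 listed, 12 could be tested, and all 12 had a negative log2 fold change, beside 50.9% of all entries. By the unadjusted thresholds 4 were lower, beside 3.57% of all entries. After adjustment 0 of them were lower in edgeR, 0 with pigs as blocks and 4 in DESeq2, beside 1.5% of all entries in DESeq2. Their median log2 fold change was -0.86. The gene lists were chosen with earlier results of these data known, so nothing is read from these counts. MYL6, a myosin light chain shared by smooth-muscle and non-muscle myosin, was at 1680.1, 2227 and 2095 CPM in MSCs and 869, 454 and 673 in EVs. Its log2 fold change was -1.59 (SE 0.34, edgeR adjusted p 0.212). Filamin C (FLNC), which links actin filaments into networks, was at -1.33 (SE 0.26, edgeR adjusted p 0.206). Palladin (PALLD), a scaffold of stress fibres, was at -1.43 (SE 0.39, edgeR adjusted p 0.225). The entry of MYL6 overlaps others in part. Non-muscle myosin MYH9, talin (TLN1) and alpha-actinin 4 (ACTN4), all abundant, had smaller values of -0.76, -0.58 and -0.62, with SEs of 0.38, 0.28 and 0.25.

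Genes for monomer binding, severing and capping gave 1 call, lower in EVs, among 12 tested of 19 listed, beside 3.57% of all entries lower. CFL2, a cofilin that severs filaments, was lower with a log2 fold change of -1.13 (SE 0.35, edgeR adjusted p 0.245), and lost the call without MSC replicate 1, at -0.75. Thymosin beta-4 (TMSB4X), which holds actin monomers, was at 651 ± 198 CPM in MSCs and 392 ± 16.98 in EVs (SD, n = 3 each), fitted as a log2 change of -0.73 (SE 0.29, edgeR adjusted p 0.290). CAP1, which recycles monomers, was at -0.58 (SE 0.23). The coronins CORO1B and CORO1C were at -0.72 and -0.44. The median of the 12 was -0.60.

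Of 22 genes for filament nucleation, 19 could be tested, with a median log2 fold change of -0.41. Another entry overlapped 15 of these 19. In the fit without overlapped entries 4 were tested, with a median of 0.82, so the sign of the median depended on the overlapped entries. The formin FMNL3 was the 1 of the 19 higher by the unadjusted thresholds and 0 were lower, beside 5.55% and 3.57% of all entries. FMNL3 stood at the limit, at 1.01 (SE 0.35, edgeR adjusted p 0.266), and lost the call in 9 alternatives. It was at 0.99 with DESeq2, 0.93 with pigs as blocks, 0.90 without MSC replicate 3 and 0.61 without EV replicate 3. The Arp2/3 subunits ACTR2, ARPC2 and ARPC5, which start branched filaments, were at 0.23, -0.41 and -0.48, with SEs of 0.36, 0.23 and 0.27. WASF2, which activates that complex, was at -0.43 (SE 0.26). The entries of ACTR2, ARPC2, ARPC5 and WASF2 are all overlapped by others, so their levels are uncertain. For folding and processing of actin, 10 of 16 genes could be tested. In edgeR 0 were called by the unadjusted thresholds, beside 3.57% lower and 5.55% higher of all entries. After adjustment in DESeq2 0 were called, beside 1.5% lower and 2.04% higher of all entries. The chaperonin subunits CCT4 and CCT8 were at -0.17 and -0.087, the prefoldin subunit VBP1 at 0.014, and SETD3, which methylates actin, at -0.40.

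Over the 7 lists, which were chosen with earlier results of these data known, 90 of 108 genes had an entry and 67 could be tested. Of these, 8 were lower and 1 was higher by the unadjusted thresholds, beside 3.57% and 5.55% of all entries. The median log2 fold change was -0.51, beside -0.016 over all entries, and 54 of 67 were negative, beside 50.9% of all entries. After adjustment, 0 were lower in edgeR, and 1 (ACTBL2) was when pigs were blocked, beside 0.605% of all entries. In DESeq2 7 were lower, namely 4 of the crosslinker list with ACTBL2, SRF and SYNPO2, beside 1.5% of all entries. Of the 17 genes listed at 0 reads, 13 were in entries whose span another covers by at least 90%, and 2 others, DIAPH2 and PLS3, were on the sequence named X. Of the 67 tested, 38 were overlapped by another entry to some extent. The fit without overlapped entries tested 1 to 7 genes of each list, and 5 genes of the lists were called. Among the 7859 entries of that fit, 456 were higher and 293 lower by the same thresholds. Since the lists were chosen on these data, nothing is read from the counts.

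**Figure D4:**
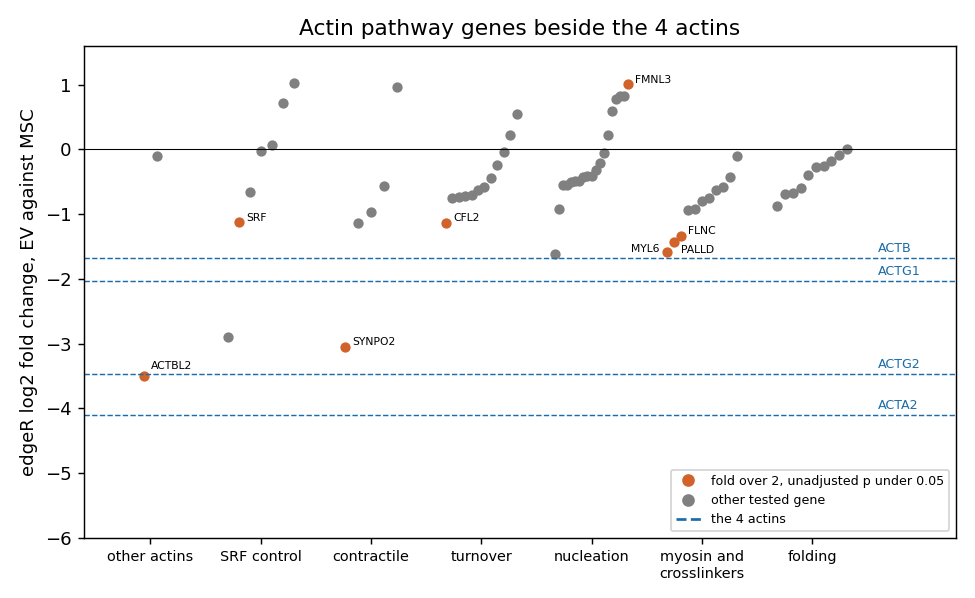
The edgeR log2 fold change of EVs against MSCs for the tested genes of the 7 lists, 1 point per gene with 1 gene left out, with orange points for a fold change over 2 at an unadjusted p-value under 0.05 and dashed lines at the 4 actins. Of the listed genes, ACTBL2, SYNPO2 and an uncalled point at -2.90 (MYOCD) lie lower than ACTG1, and the crosslinkers lie below 0 throughout.

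Markers of mural cells, the pericytes and smooth-muscle cells in which ACTA2 is typical, went both ways. Of 9 listed, 6 could be tested, with 2 negative and 4 positive log2 fold changes, beside 50.9% negative over all entries. The 9 markers summed to 434 to 903 RPM in MSCs and 839 to 979 in EVs. RGS5 was listed at 0 in an entry that another covers, MYH11 had 10 reads in MSCs and 8 in EVs, and most reads came from PDGFRB, which stromal cells also make, at a log2 fold change of 0.37 (SE 0.47). MCAM, at -0.58 (SE 0.32), was lower in every EV library than in every MSC library without passing the thresholds, and CSPG4 was at -0.35 (SE 0.60). By the unadjusted thresholds 2 of the 6 tested were higher in EVs, beside 5.55% of all entries. These were NOTCH3 and ABCC9, at 2.21 and 2.46. Their adjusted p-values were 0.210 and 0.243 from edgeR, 0.0622 and 0.0995 when pigs were blocked, and 0.00304 and 0.0242 from DESeq2. NOTCH3 was higher in every EV library than in every MSC library. ABCC9 overlapped between the groups and lost the call without EV replicate 2, at 1.40. Endothelial markers summed to 10.1 to 19.4 RPM in MSCs and 1.98 to 8.05 in EVs. Most of these were PECAM1, which was lower in EVs by the unadjusted thresholds, at -1.71 (SE 0.54, edgeR adjusted p 0.249), in an entry that another overlaps, while KDR had 1 read and VWF was listed at 0 in an entry that another covers. Leukocyte markers summed to 41.5 to 55.5 RPM in MSCs and 38.5 to 68.3 in EVs. Most of these reads were CD14, with 3460 over the 6 libraries beside 204 for CD68, 40 for CSF1R and 33 for PTPRC. CD14 was at 0.21 (SE 0.23) and CD68 at -0.46 (SE 0.41). The part of other cell types in the actin values was not tested.

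The tested entries with a symbol whose pattern was most like each actin were ranked by Pearson's r of log2 CPM over the 6 libraries, as a description. The libraries fall into 2 groups that differ in all of these genes, which raises every r. For ACTG2 the closest was CCN2 (r = 0.995), a secreted matricellular protein, read 6090, 12893 and 5346 times in the MSCs of pigs 1, 2 and 3 and 429, 209 and 238 times in their EVs, then DNMT3L (0.992), MLX (0.988) and BYSL (0.986). For ACTA2 they were TNFAIP1 (0.989), SCHIP1 (0.988), TMEM109 (0.988) and ITGA8 (0.987), an integrin subunit of mesenchymal and smooth-muscle cells, read 3152, 2104 and 3440 times in the MSCs and 944, 737 and 1344 times in the EVs. For ACTB they were CLIC6 (0.996), RILPL2 (0.994), MCRS1 (0.994) and GDE1 (0.993). CLIC6 had only 5, 3 and 1 reads in the EVs of pigs 1, 2 and 3, in an entry that another overlaps, so its values are uncertain. A high r does not mean a change of like size. In the order named, the log2 fold changes were -4.82, -1.77, -0.67 and -2.09 beside -3.47 for ACTG2. They were -0.64, -2.06, -1.10 and -1.43 beside -4.10 for ACTA2, and -4.33, -0.41, -0.66 and -0.69 beside -1.67 for ACTB. Between the actins, r was 0.942 for ACTA2 and ACTG2, 0.981 for ACTG2 and ACTG1, 0.972 for ACTG2 and ACTB, and 0.865 for ACTA2 and ACTB. These values do not rank the pairs, since each r spans the difference between the groups and ACTA2 rests on 5 to 39 reads in EVs.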

How the data were processed

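Reads were aligned with TopHat, and susScr3 is the build in the submitters' processing notes. For counting, the study's methods name featureCounts and the processing notes name HTSeq, so how reads on overlapping entries were treated is not settled. The authors deposited raw counts and RPKM for each gene entry. The table held 29661 entries, of which 3 were shifted by a column and were left out. Symbols came from the table for 4336 entries and from the reference gene names for 11804 of 25322 Ensembl identifiers. Levels are the deposited RPKM. EVs were compared with MSCs from the deposited counts with edgeR 4.0.16 in R 4.3.3 (TMM, filterByExpr, quasi-likelihood test, Benjamini-Hochberg adjustment over all entries tested). Standard errors were derived from the test statistic. Log2 CPM used a prior count of 2. Gene overlaps were read from the spans of the entries.

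The actins and the gene lists were chosen with earlier results of these data known. Genes named are the 4 actins, from each list the 4 tested genes with the most reads and those past the unadjusted thresholds, and the 4 entries most like an actin. Alternatives were other scaling factors, DESeq2 1.42.0, no filter, the pig as a block, limma 3.58.1 on log2 RPKM after adding 1 or 0.1, other actin shares, and leaving out each library. The fit was tested on simulated data. For 1 gene counted in the lists, single values are not reported here. Libraries of the same pig correlated in their deviations from the group means at 0.251, 0.384 and 0.408, and those of different pigs at -0.364 to -0.038. The pairing comes from the pig labels. The 6 small-RNA libraries were not used.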

Additional observations from a re-analysis of the deposited data

How the results depend on the processing

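All 4 actins stayed lower in EVs and past the unadjusted thresholds in every fit that held them. The actins were chosen on this comparison and the fits share their libraries, so nothing is read from these passes. Over all entries, the share lower by these thresholds was 3.57% in edgeR, 5.17% with pigs as blocks and 4.33% in DESeq2. In limma on RPKM, ACTA2 was at -2.23 and ACTG2 at -2.48 after adding 1, and at -3.97 and -3.30 after adding 0.1. Without overlapped entries, which was tried only once the values were known, ACTA2 drops out by construction and 3 remain. Leaving out 1 library moved ACTA2 from -5.35 (without EV replicate 3) to -3.59 (without EV replicate 2), ACTG2 from -3.64 to -3.22, ACTB from -1.86 to -1.52 and ACTG1 from -2.15 to -1.86. The smooth-muscle share was 0.144% to 0.239% in EVs and 0.594% to 0.681% in MSCs without 1 library. Not divided by length it was 0.460% in MSCs, and with the shorter ACTA2 length 1.17% in MSCs and 0.327% in EVs.

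After adjustment, the replicate block (pig) gave 61 entries higher and 75 lower, DESeq2 gave 253 and 186, library totals gave 3 lower and no filter 5 lower, against 0 in the other edgeR fits. By the unadjusted thresholds, entries without an overlap gave 456 higher and 293 lower, from 7859 entries tested, and 5 called genes of the actin lists. Leaving out 1 library gave 511 to 948 higher, 270 (without EV replicate 2) to 607 lower, and 9 to 12 genes of the lists. The cause was not tested.

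Uncalled genes near 0 changed sign when 1 library was left out: ACTL6A ran from -0.26 to 0.027, MRTFA from -0.015 to 0.22, ACTR2 from -0.088 to 0.45, CCT8 from -0.24 to 0.043, VBP1 from -0.14 to 0.15, CD44 from -0.73 to 0.10, NT5E from -0.14 to 0.25 and CSPG4 from -0.88 to 0.13. NT5E was also at -0.025 under the replicate block and -0.016 without overlapped entries, where VBP1 was at -0.0094. The few EV reads of ACTA2 limit its precision most.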
